A study of Mus musculus with 6 samples.

Results

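Of the 56884 mouse genes in the deposited count table, 10 are described here: Yap1, Wwtr1, Tead1, Lats2, Ajuba, Amotl2, Ankrd1, Ccn1, Ccn2 and Axl. They are effectors, regulators and targets of the Hippo pathway, taken by name, and all 10 had enough counts to be among the 18018 mouse genes tested. The 10 were chosen by name with the measured values in view, that is, the fitted changes between the 2 groups in all 6 libraries of this table, so the differences of the 10 genes between the groups are given as a description. No p of theirs is printed, and where one is said to be called, this states only on which side of the threshold for all genes it lay. Bulk RNA came from livers of male athymic BALB/c (nu/nu) mice in which cells of QGY-7703, a human hepatocellular carcinoma (HCC) line, had been implanted in the liver at an age of 6 weeks. AAV8 carrying a control siRNA (siControl, genotype WT in the labels) or an siRNA against Aatf (siAATF, genotype KD in the labels) was given through the tail vein at 1 week from implantation, and tissue was taken another 3 weeks later. All mice of both groups therefore carried the nude mutation, the human tumor and the virus. The siRNA is directed at mouse Aatf, and the vector carries the TBG promoter, which is active in hepatocytes. Each group had 3 libraries, numbered 1 to 3. The labels number the replicates without tying them to single mice, so the spread between libraries may be in part technical. Athymic mice lack most T cells but keep B cells, natural killer cells and myeloid cells.

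YAP (encoded by Yap1) and TAZ (encoded by Wwtr1) are transcriptional coactivators that carry signals from cell shape, matrix stiffness and cell contact into the nucleus. The Hippo kinases MST1/2 and LATS1/2 phosphorylate them and hold them in the cytoplasm, whereas on stiff matrix they enter the nucleus and bind TEAD factors, which recognise DNA through the GGAATG element. Ankrd1, Ccn1 and Ccn2 are their best known targets, and Lats2, Ajuba and Amotl2 are both parts of the pathway and targets of it. In liver, YAP is known for the control of organ size, for its activity in bile duct cells and activated stellate cells, and for a role in liver tumors. RNA levels of Yap1 or Wwtr1 do not measure the activity of the proteins, which depends on phosphorylation and location.

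The promoter sequences are shown first because TEAD factors bind DNA through the GGAATG element. Several of the genes are known as TEAD targets, in part for such elements, so their presence is given as a description and not as independent evidence. RefSeq windows from 250 bases before to 50 bases after the annotated start (GRCm38.p6) were held for 8 of the 10 genes, in 10 windows, and Ccn2 and Tead1 had no entry. At least 1 GGAATG, on either strand, was found for 8 of 8 genes and in 9 of 10 windows. Of all 32851 promoter windows of the same length, 14.66% held the element, and 1.361% held it at least 2 times, and 16.58% of 27025 genes had at least 1 window with it. Each stretch below is given on the strand of its gene with up to 25 bases on each side, in lower case, with the element in capitals (CATTCC where it lies on the opposite strand).
Yap1: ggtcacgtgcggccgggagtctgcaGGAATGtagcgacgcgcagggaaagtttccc
Wwtr1: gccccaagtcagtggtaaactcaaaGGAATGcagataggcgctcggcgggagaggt
Lats2: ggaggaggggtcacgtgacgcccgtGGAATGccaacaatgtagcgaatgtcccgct
Ajuba: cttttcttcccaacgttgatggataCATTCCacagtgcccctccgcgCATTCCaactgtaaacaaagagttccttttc
Amotl2: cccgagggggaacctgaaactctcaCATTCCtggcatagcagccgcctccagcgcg
Ankrd1: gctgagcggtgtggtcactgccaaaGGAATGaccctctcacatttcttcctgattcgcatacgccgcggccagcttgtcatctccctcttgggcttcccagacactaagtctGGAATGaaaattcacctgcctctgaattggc
Ccn1: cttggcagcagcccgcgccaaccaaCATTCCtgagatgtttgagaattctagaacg
Axl: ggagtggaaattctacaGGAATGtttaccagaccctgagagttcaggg

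In GRCm38.p6 these stretches lie at chr9:8004707-8004762 (minus strand, Yap1), chr3:57576016-57576071 (minus, Wwtr1), chr14:57746089-57746144 (minus, Lats2), chr14:54577795-54577872 (minus, Ajuba), chr9:102717714-102717769 (plus, Amotl2), chr19:36119937-36120079 (minus, Ankrd1), chr3:145650058-145650113 (minus, Ccn1) and chr7:25788936-25788983 (minus, Axl). All are upstream of the annotated start except that of Lats2, whose element begins at position 5 of the transcript. Ankrd1 and Ajuba each held 2 elements, the former at -210 and -123 and the latter at -186 and -164 from the start. The element of Axl was the most distant, at -233, and that of Amotl2 the nearest of those upstream, at -65. Yap1, itself the coactivator, carried the element at -141 and Ccn1 at -103. The stretch of Wwtr1 lay in the windows of both of its starts, at -170 and -136, and Lats2 held the element in 1 of its 2 windows. The AP-1 element TGANTCA, often found near TEAD elements in enhancers, had no match in the 10 windows, against 7.808% of all windows. Among related genes, the TEAD element was found for 3 of 14 genes with a window in a list of upstream Hippo components, 4 of 7 paralogs and partners, 2 of 10 other YAP and TEAD targets, and 2 of 11 mechanosensing genes. A match describes the letters in the window and is not evidence of binding.

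**Figure D1:**
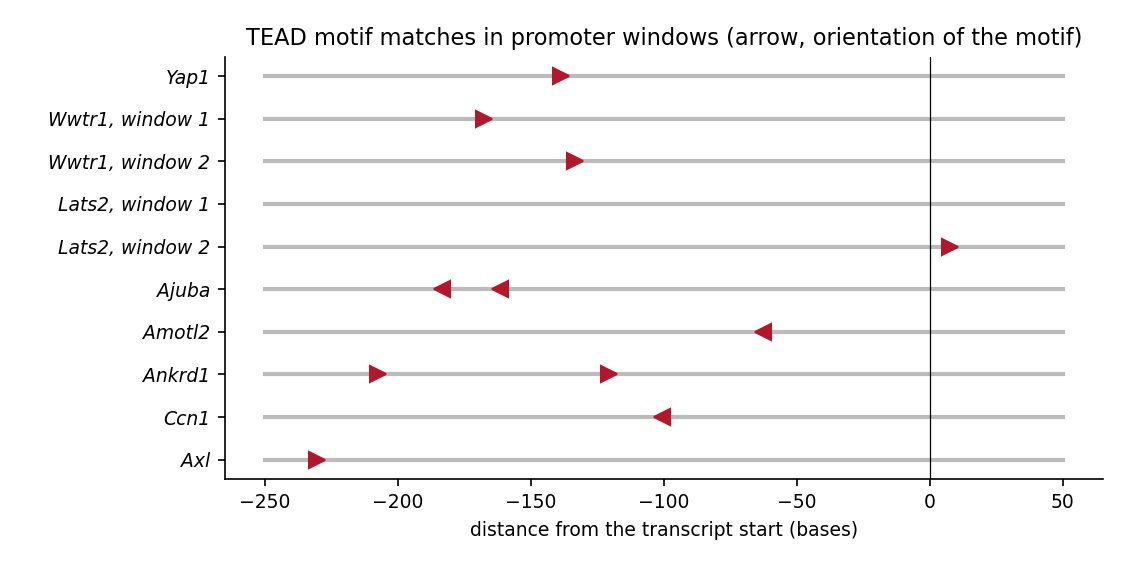
Positions of the GGAATG element in the promoter windows of the 8 genes with a RefSeq entry, as distance in bases from the annotated start (horizontal axis), with 1 line per window and arrows for the orientation of the element. Ankrd1 and Ajuba hold 2 elements each, and all elements but that of Lats2 lie before the start.

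The depth of the mouse table differed greatly between the groups. Mouse totals ran from 213022 to 913584 counts in the siControl libraries and from 11835898 to 42563694 in those labelled siAATF, since human genes took 98.1% to 99.2% of the counts of the former and 0.972% to 2.14% of the latter. A gene with 0 counts can still reach 3 counts, which equals 1.67 to 7.25 CPM (counts per 1000000 mouse counts, after TMM normalization) for siControl but only 0.104 to 0.605 CPM for siAATF, counting error only. Values below are on this scale unless another is named. The siRNA target Aatf had 12, 1 and 23 siControl counts against 384, 109 and 340 in siAATF, or 9.63, 2.42 and 12.8 against 13.3, 22.0 and 18.9 CPM. Its fitted log2 fold change was 0.93 (SE 0.47, Benjamini-Hochberg adjusted p = 0.152 by the quasi-likelihood test of edgeR) and turned to -0.92 with scaling by library size alone and to -0.23 after thinning, that is, drawing reads at random down to the lowest mouse total. As TPM (counts over gene length, scaled to the same library total without TMM), Aatf had 18.5, 4.95 and 27.6 in siControl against 7.71, 7.33 and 7.84 in siAATF, overlapping through siControl replicate 2, so whether the target was lower depended on the scaling, and directions below refer to labels. The median log2 fold change of all genes tested was 0.50, and changes are also given relative to it.

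The makeup of the mouse RNA differed between the groups as well, which bears on every value below. The 8 hepatocyte markers summed to 3201 to 8840 CPM in siControl against 39644 to 119241 CPM in siAATF, and all 8 were higher in siAATF at adjusted p under 0.05. The 8 fibroblast and stellate cell markers summed to 8171 to 12195 CPM against 346 to 508 CPM, and 6 of 8 were lower. Macrophage markers summed to 498 to 1896 CPM against 108 to 163 CPM, with 4 of 6 lower, and endothelial markers to 405 to 515 CPM against 90.8 to 223 CPM, with 3 of 7 lower. Not every marker followed its sum. The macrophage marker Clec4f had 44.2, 2.42 and 13.4 CPM in siControl against 69.5, 45.4 and 69.1 in siAATF. The endothelial marker Stab2 had 28.9, 14.5 and 20.1 against 45.8, 42.4 and 30.3 CPM. Both had every siAATF library above every siControl library, and neither was called. Of the smaller lists, 2 of 5 cholangiocyte markers tested were lower (summed 1142 to 2310 CPM against 74.8 to 77.9 CPM, mostly Spp1), 1 of 4 mesothelial markers (2.42 to 22.5 against 1.00 to 20.2 CPM) and 3 of 4 neutrophil markers (86.7 to 1783 against 2.22 to 124 CPM). Lrat (stellate cells), Marco (macrophages), Krt19 and Krt7 (bile duct cells), Msln and Upk3b (mesothelium) were at 0 counts in siControl replicate 2 only, Ly6g (neutrophils) was at 0 in siControl replicate 1 and in siAATF replicates 1 and 2, and Cftr (bile duct cells) was at 0 in all siControl libraries and in siAATF replicate 1. In these bulk libraries, fewer cells of a type and less RNA per cell cannot be told apart. The share of human counts also went with the group in every library. A different share of tumor and liver in the tissue sampled therefore cannot be told apart from the siRNA in any change below. The part of these cell types in the levels of the 10 genes was not tested.

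The coactivators differed from each other. Yap1 (ENSMUSG00000053110, GRCm39 chromosome 9, 7932000 to 8004597, minus strand) had 34, 15 and 55 counts in the siControl libraries and 1659, 175 and 892 in those labelled siAATF. This corresponded to 27.3, 36.2 and 30.7 CPM in siControl and 57.2, 35.3 and 49.5 CPM in siAATF, means of 31.4 ± 4.51 and 47.3 ± 11.1 (SD, n = 3 here and below). The groups overlapped through siAATF replicate 2, and the log2 fold change of 0.61 (SE 0.36) was close to the median of all genes and turned to -1.15 with scaling by library size alone. Wwtr1 (ENSMUSG00000027803, chromosome 3, 57363070 to 57483331, minus strand), which encodes TAZ, had 36.1, 31.4 and 41.3 CPM in siControl and 11.6, 13.1 and 19.6 CPM in siAATF. Here every siAATF library was below every siControl library, with means of 36.3 ± 4.94 and 14.8 ± 4.24 and a log2 fold change of -1.31 (SE 0.36), which without siControl replicate 3 was -1.22 and no longer called. The DNA-binding partner Tead1 (ENSMUSG00000055320, chromosome 7, 112278525 to 112506014, plus strand) had 22, 11 and 46 counts in the siControl libraries and 77, 36 and 64 in those labelled siAATF. Its levels of 17.7, 26.6 and 25.7 CPM in siControl lay above the 2.66, 7.26 and 3.55 CPM of siAATF, a 5.34-fold lower fitted level (log2 fold change -2.42, SE 0.47). After thinning, Tead1 was at -1.96 and no longer called.

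**Figure D2:**
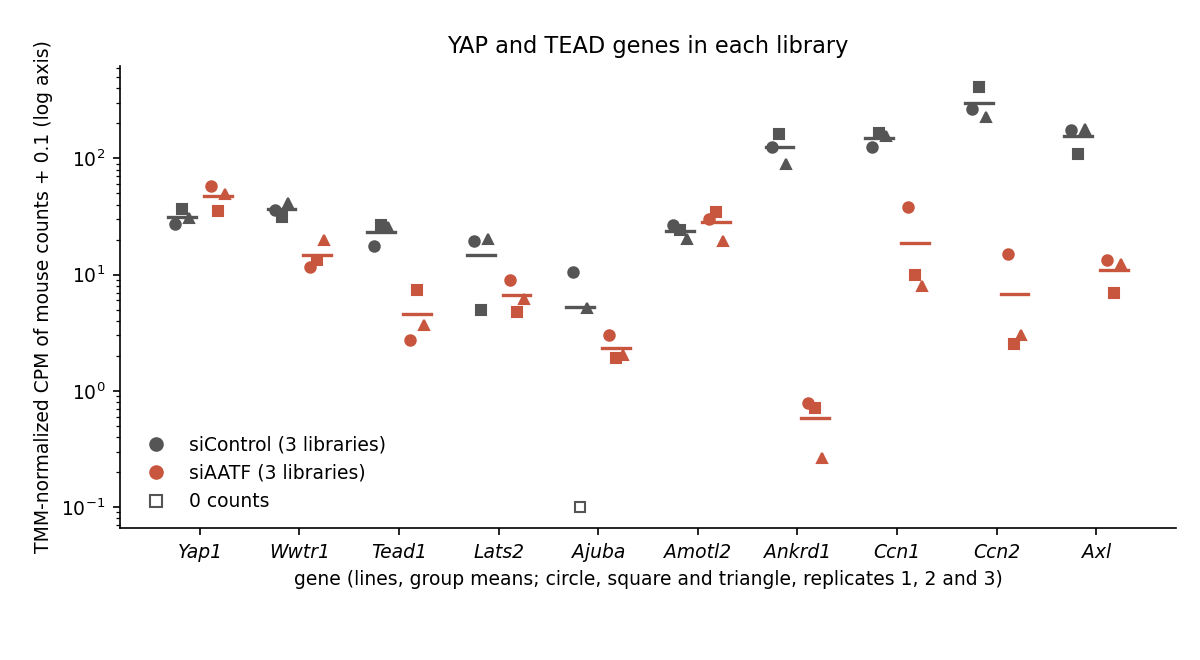
TMM-normalized CPM of mouse counts of the 10 genes, on a log axis, 1 point per library (an open square for 0 counts) and a line at the mean of each group of 3, all with a small constant added. Ankrd1, Ccn1, Ccn2, Axl, Tead1 and Wwtr1 have all siAATF libraries below all siControl libraries, and the other 4 genes overlap.

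The 3 matrix-responsive targets Ankrd1, Ccn2 and Ccn1 had the highest levels per length of the 10 genes in siControl, and all were lower in siAATF. Ankrd1 (ENSMUSG00000024803, chromosome 19, 36089365 to 36097499, minus strand) encodes an ankyrin repeat protein of muscle and stressed tissue that is widely read as a report of YAP activity. It had 157, 67 and 161 counts in the siControl libraries and 20, 3 and 3 in those labelled siAATF, although the latter libraries were the deeper ones. In CPM this was 126, 162 and 89.8 against 0.690, 0.605 and 0.166, so that its level was 254-fold lower by the fit (log2 fold change -7.99, SE 0.61, or -8.61 without siAATF replicate 1). Ccn2 (ENSMUSG00000019997, chromosome 10, 24471340 to 24474581, plus strand), or connective tissue growth factor, is a matricellular protein of fibrosis. It had 330, 170 and 407 counts in the siControl libraries and 429, 12 and 53 in those labelled siAATF, which gave 265, 411 and 227 CPM against 14.8, 2.42 and 2.94 CPM. The siAATF replicate 1 was the highest of its group, yet remained below all siControl libraries, and the fitted level was 43.2-fold lower (log2 fold change -5.43, SE 0.74, or -6.77 without siAATF replicate 1). Ccn1 (ENSMUSG00000028195, chromosome 3, 145352731 to 145355736, minus strand), or CYR61, a related matricellular protein of cell adhesion and vessel growth, had 156, 68 and 278 counts in the siControl libraries and 1096, 49 and 142 in those labelled siAATF. Its 125, 164 and 155 CPM stood against 37.8, 9.88 and 7.88 CPM, a 7.90-fold lower fitted level (log2 fold change -2.98, SE 0.58, or -4.04 without siAATF replicate 1 and -4.25 after thinning). In siAATF replicate 1, which held the highest Ccn1 and Ccn2 of its group, the endothelial marker sum was also the highest of the group, at 223 CPM against 123 and 90.8. The fibroblast and stellate cell sum was the highest there too, at 508 CPM against 396 and 346. The cholangiocyte sum (74.8 CPM) and the mesothelial sum (1.00 CPM) were the lowest of the group there. The macrophage, hepatocyte and neutrophil sums lay between those of the other siAATF libraries. The part of these cells was not tested.

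Axl (ENSMUSG00000002602, chromosome 7, 25456698 to 25488130, minus strand) encodes a receptor tyrosine kinase for GAS6 that macrophages and mesenchymal cells use in the clearance of dead cells. It had 219, 45 and 322 counts in the siControl libraries and 381, 34 and 221 in those labelled siAATF. Levels were 176, 109 and 180 CPM in siControl and 13.1, 6.86 and 12.3 CPM in siAATF, without overlap and 14.3-fold lower by the fit (log2 fold change -3.84, SE 0.44). The lowest siControl library in Axl, replicate 2, was also the lowest in the macrophage marker sum, at 498 CPM against 1896 and 1040. The hepatocyte sum (3201 CPM) and the mesothelial sum (2.42 CPM) were the lowest of the group in that library too. The endothelial sum (515 CPM) and the neutrophil sum (1783 CPM) were the highest there. The fibroblast and stellate cell sum (11371 CPM) and the cholangiocyte sum (1486 CPM) lay between those of the other siControl libraries. The part of these cells was not tested.

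The groups overlapped in all 3 genes that act between the LATS kinases, cell junctions and YAP. Lats2 (ENSMUSG00000021959, chromosome 14, 57927119 to 57983580, minus strand), a kinase that phosphorylates YAP and TAZ, had 24, 2 and 36 counts in the siControl libraries and 257, 23 and 109 in those labelled siAATF. Its levels were 19.3, 4.83 and 20.1 CPM against 8.87, 4.64 and 6.05 CPM, and siControl replicate 2, with 2 counts, lay within the siAATF range (log2 fold change -1.28, SE 0.49). Lats2 was called under 9 alternatives, among them DESeq2 (-1.38), RLE (-1.39) and upper-quartile scaling (-1.56), without siControl replicate 2 (-1.58) or siAATF replicate 1 (-1.53), and after thinning, at -5.43. The value after thinning is near the floor, since siAATF totals of 11835898 to 42563694 were drawn down to 213022 and few Lats2 counts remain. Ajuba (ENSMUSG00000022178, chromosome 14, 54804929 to 54815015, minus strand), a LIM protein that binds LATS kinases at cell junctions and limits their action on YAP, had only 13, 0 and 9 counts in the siControl libraries and 84, 9 and 35 in those labelled siAATF. In CPM these were 10.4, 0 and 5.02 against 2.90, 1.82 and 1.94 (log2 fold change -1.38, SE 0.75, or -0.58 without siControl replicate 1). The 0 in siControl replicate 2 allows up to 7.25 CPM after TMM normalization, which is above every siAATF value of Ajuba. Amotl2 (ENSMUSG00000032531, chromosome 9, 102594001 to 102610617, plus strand), an angiomotin family protein that binds YAP at junctions and the actin cytoskeleton, had 26.5, 24.2 and 20.1 CPM in siControl and 30.2, 34.3 and 19.3 CPM in siAATF. Its means of 23.6 ± 3.25 and 27.9 ± 7.75 differed by less than the spread within siAATF (log2 fold change 0.25, SE 0.37, and -1.56 with scaling by library size alone, where it was called lower).

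Exons of 4 of the 10 genes overlap another annotated gene, and whether counting used the strand is not given in the sources used here. Yap1, Ankrd1 and Ccn2 overlap Gm20416, Gm56671 and Gm15270 on the opposite strand, and Lats2 overlaps Gm49361 on its own strand. These partners held few counts, at most 26 in any library (Gm49361 in siAATF replicate 1).

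Across the 10 genes, 6 were lower in siAATF at an adjusted p under 0.05 by edgeR's test over all mouse genes and 0 were higher, where 14.4% of all genes tested were lower and 17.6% higher. With the study's own criteria, an unadjusted p under 0.05 and an absolute log2 fold change of at least 2, 5 were lower and 0 higher, against 13.1% and 13.6% of all genes. The same 6 genes had every siAATF library below every siControl library, against 18.1% of all genes, and 0 had every siAATF library above, against 34.5%. Since the genes were chosen with this contrast known, nothing is read from these shares. The median log2 fold change of the 10 genes was -1.90, or -2.40 relative to all genes, and 9 of 10 lay below the median of all genes, with Yap1 above it by 0.11. Relative to that median, the values were -8.49 for Ankrd1, -5.94 for Ccn2, -4.34 for Axl, -3.48 for Ccn1, -2.92 for Tead1, -1.88 for Ajuba, -1.81 for Wwtr1, -1.78 for Lats2 and -0.25 for Amotl2.

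**Figure D3:**
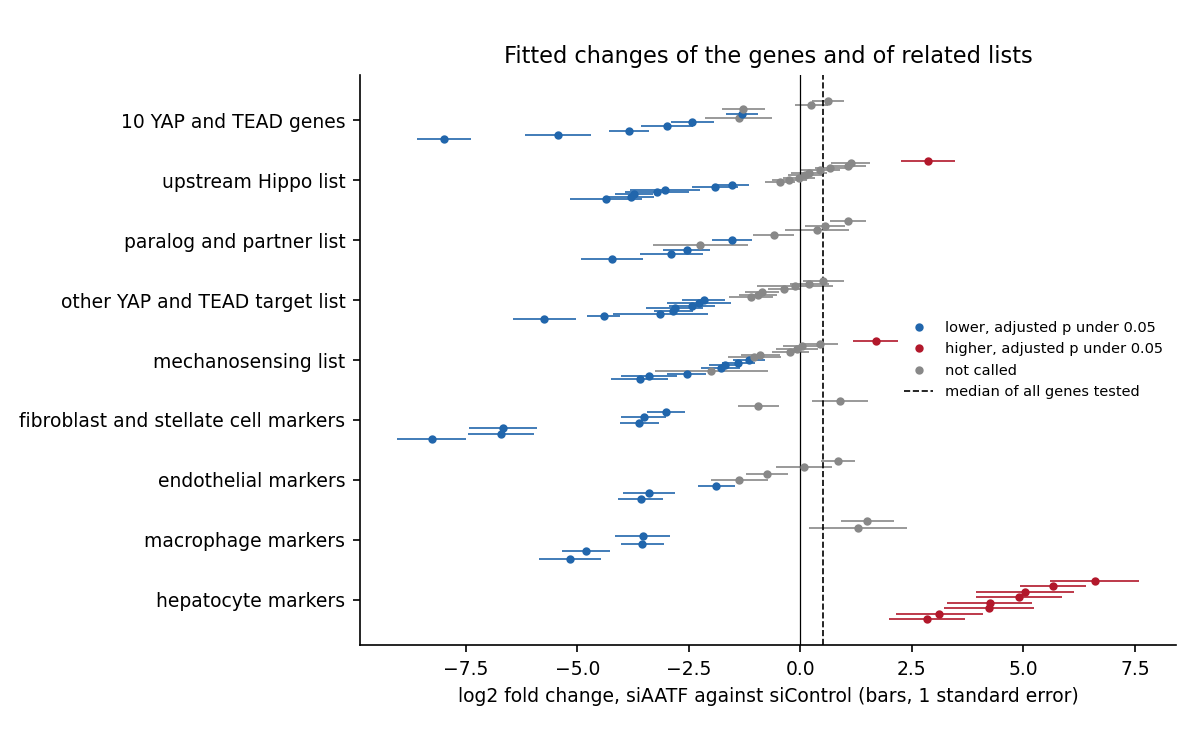
Fitted log2 fold changes (siAATF against siControl, bars of 1 standard error) of the 10 genes, of 4 related gene lists and of cell type markers, with the median of all genes at 0.50 as a dashed line. The 10 genes spread from -7.99 (Ankrd1) to 0.61 (Yap1), and all 8 hepatocyte markers are above 0.

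Levels were also set against all gene counts of a library, human and mouse together. Mouse counts were only 0.778% to 1.93% of the total in siControl but 97.9% or more in siAATF, so most mouse genes were more abundant in siAATF on this scale. Yap1 went from a mean of 0.832 CPM of human and mouse counts in siControl to 26.1 in siAATF, and Amotl2 from 0.645 to 14.8. Ankrd1 was nevertheless lower in siAATF, at 4.30, 2.45 and 2.98 CPM in siControl and 0.465, 0.248 and 0.0848 CPM in siAATF, with no overlap. For Ccn2, the values of 9.04, 6.21 and 7.53 CPM overlapped those of siAATF, 9.98, 0.992 and 1.50 CPM. Without siAATF replicate 1 the mean of Ccn2 in siAATF was 1.25 against 7.59 CPM. Ccn1 had 4.27, 2.48 and 5.14 CPM in siControl, overlapping the 25.5, 4.05 and 4.01 CPM of siAATF, and its higher mean in siAATF rested on replicate 1, without which the means were 3.97 and 4.03 CPM. Axl overlapped as well, with 6.00, 1.64 and 5.96 against 8.86, 2.81 and 6.25 CPM.

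Ratios between genes within a library do not depend on such scaling. Levels per length were computed as TPM (counts over the deposited gene length, scaled to the same total in every library) and divided by the TPM of Yap1. Ankrd1 had 9.53, 9.22 and 6.04 times the level of Yap1 in siControl and 0.0249, 0.0354 and 0.00694 times in siAATF. Ccn2 stood at 14.6, 17.0 and 11.1 times Yap1 in siControl and at 0.389, 0.103 and 0.0893 times in siAATF, and Ccn1 at 9.48, 9.37 and 10.4 against 1.36, 0.578 and 0.329 times. The targets were thus above their coactivator in all siControl libraries and, but for Ccn1 in replicate 1, below it in the siAATF libraries. Axl went from 6.27, 2.92 and 5.70 times Yap1 to 0.224, 0.189 and 0.241 times. Wwtr1 was near the level of Yap1 in siControl, at 1.16, 0.756 and 1.17 times, and at 0.177, 0.324 and 0.345 times in siAATF. The ratio of Amotl2 to Yap1 overlapped between the groups, from 0.612 to 0.907 in siControl and from 0.365 to 0.908 in siAATF. The ratio of the 2 matricellular genes to each other, Ccn2 to Ccn1, was 1.54, 1.82 and 1.07 in siControl and 0.285, 0.178 and 0.272 in siAATF, again without overlap.

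**Figure D4:**
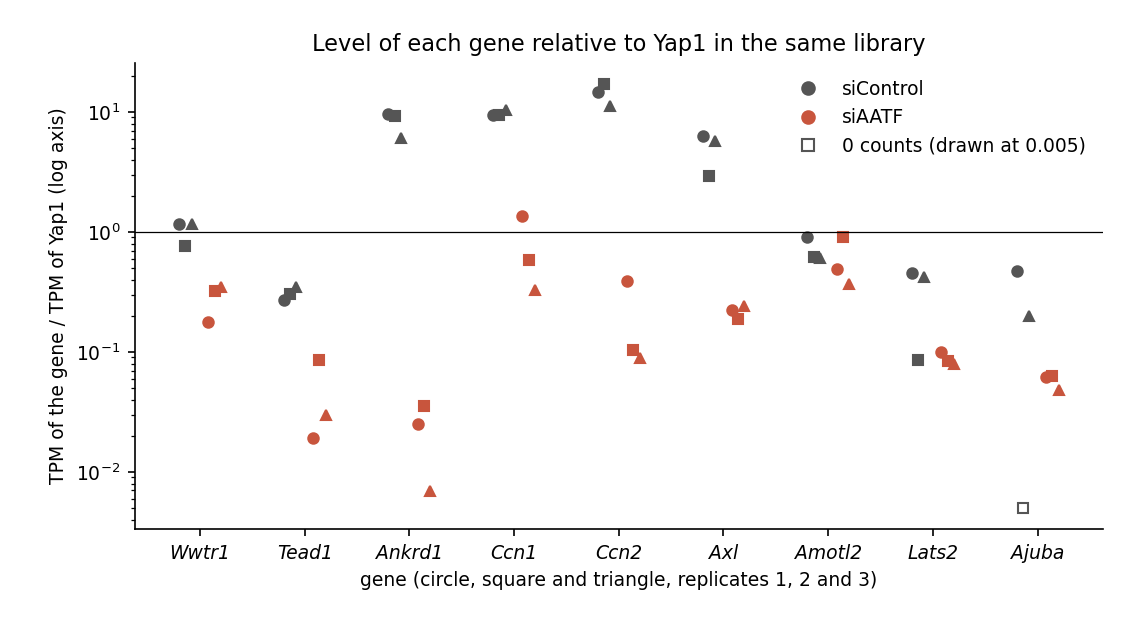
Ratio of the TPM of each gene to the TPM of Yap1 within the same library, on a log axis, 1 point per library. Ankrd1, Ccn1, Ccn2 and Axl lie above 1 in all siControl libraries, and in siAATF only Ccn1 in replicate 1 does.

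The order of the genes by TPM changed accordingly. In siControl it ran from Ccn2 (402 ± 130), Ccn1 (274 ± 49.1), Ankrd1 (230 ± 63.3) and Axl (134 ± 35.7) to Wwtr1 (28.3 ± 4.90), Yap1 (28.0 ± 4.80), Amotl2 (19.5 ± 1.69), Tead1 (8.67 ± 2.18), Lats2 (8.45 ± 4.98) and Ajuba (5.51 ± 5.38). Neighbours whose libraries overlapped were Ccn1 and Ankrd1, Wwtr1 and Yap1, Tead1 and Lats2, and Lats2 and Ajuba. In siAATF, Yap1 came first (9.56 ± 4.73 TPM), followed by Ccn1 (8.60 ± 9.76), Amotl2 (5.04 ± 1.98), Wwtr1 (2.45 ± 0.727), Ccn2 (2.33 ± 2.89) and Axl (2.13 ± 1.14). Tead1 (0.329 ± 0.0955) and Ankrd1 (0.202 ± 0.151) were the lowest in siAATF. All neighbours in this second order overlapped except Amotl2 and Wwtr1. As TPM, which leaves out TMM, Yap1 and Amotl2 did not overlap between the groups, unlike their CPM above. Yap1 ran from 22.9 to 32.4 TPM in siControl and from 5.14 to 14.6 in siAATF. Amotl2 ran from 17.6 to 20.8 and from 3.28 to 7.18 TPM, so the overlap of both genes depended on the scaling.

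Paralogs were compared as shares of the summed TPM of their family. Within the Yap1 and Wwtr1 pair, Yap1 held 49.8% ± 6.20 in siControl and 78.3% ± 5.84 in siAATF. Among the TEAD factors, Tead3 held the most in both groups, with 40.7% ± 7.33 and 71.6% ± 13.3, while Tead1 held 27.0% ± 7.34 and 15.0% ± 10.8 and Tead2 26.9% ± 8.23 and 10.5% ± 6.76. The LATS kinases were nearly even in siControl, with Lats1 at 53.1% ± 13.8, and Lats1 held 78.6% ± 5.97 in siAATF. For the angiomotins, Amotl2 went from 50.6% ± 10.1 to 73.9% ± 1.46, and for the AJUBA family, Limd1 went from a mean share of 53.1% to 91.6%. These shares were not tested.

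**Figure D5:**
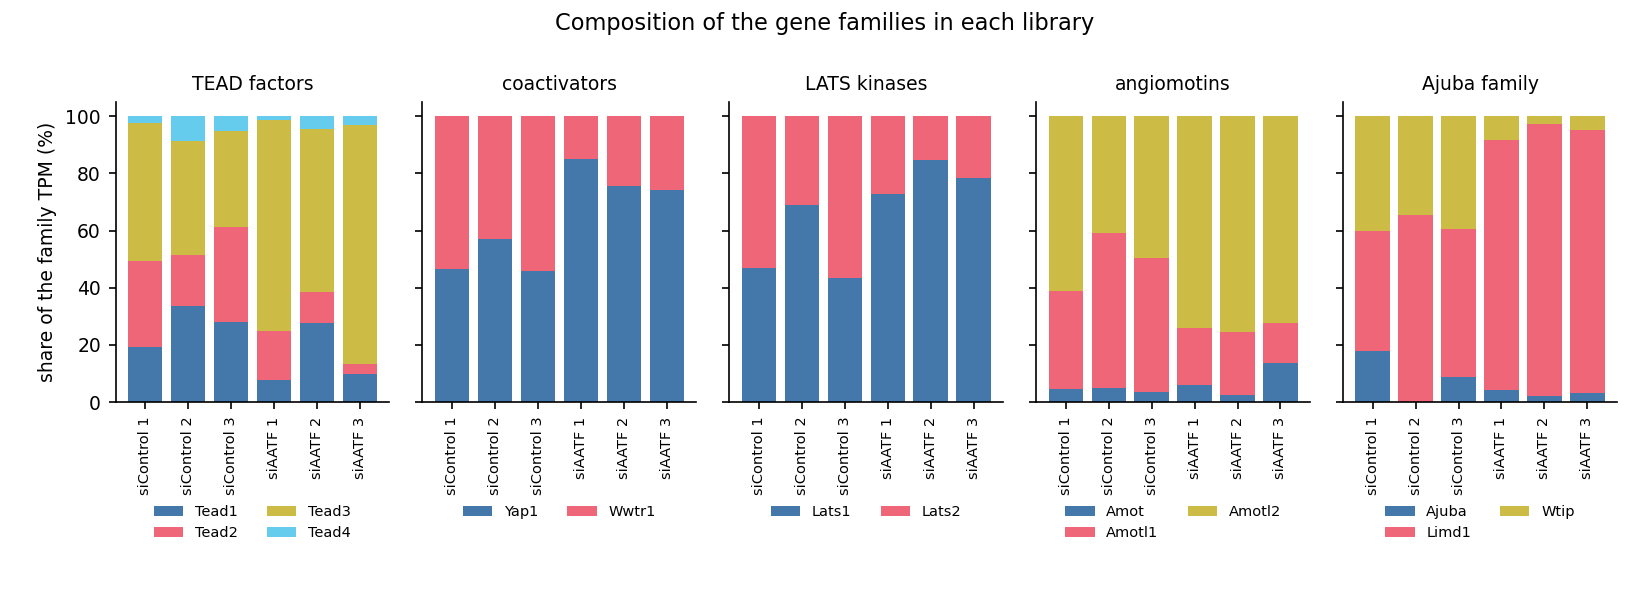
Share of each paralog in the summed TPM of its family, in percent, for the YAP/TAZ, TEAD, LATS, angiomotin and AJUBA families, by library. Yap1, Tead3, Lats1, Amotl2 and Limd1 have the larger mean share in the siAATF libraries than in the siControl libraries.

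The paralogs themselves were tested over all genes with edgeR and Benjamini-Hochberg adjustment. Lats1 had 16.2 CPM in siControl and 26.8 in siAATF (log2 fold change 0.67, SE 0.35, adjusted p = 0.167), and Tead3 had 10.9 and 7.19 CPM (-0.60, SE 0.46, adjusted p = 0.335). Amot, with 3.42 and 3.97 CPM, Limd1, with 48.3 and 98.7 CPM, and Tead4, with 1.63 and 0.321 CPM, did not pass either (adjusted p = 0.712, 0.0600 and 0.127). Tead2, Wtip and Amotl1 were lower, from 8.35 to 1.15 CPM, 13.7 to 2.22 CPM and 44.9 to 15.1 CPM (log2 fold changes -2.89, -2.55 and -1.54, adjusted p = 0.00748, 0.00244 and 0.0203). Without siControl replicate 3, neither Tead2 (-2.71) nor Amotl1 (-1.64) was called, and Amotl1 was not called without siControl replicate 2 (-1.22) or siAATF replicate 3 (-1.16) either. After thinning, neither Tead2 (-1.49) nor Vgll3 (-4.47) was called, while Wtip was at -4.80 and Amotl1 at -3.13, and without siAATF replicate 1 Tead2 and Vgll3 were at -3.65 and -4.85. Limd1 passed as higher in 6 alternatives, without siControl replicate 2 (1.35) or siAATF replicate 3 (1.21), without a filter (1.14), under a minimum of 10 counts per library (1.11), with the replicate block (1.07) and with limma-voom (1.17). With Vgll3, a TEAD cofactor that competes with YAP, from 12.9 to 0.597 CPM (-4.22, SE 0.69, adjusted p = 0.000625), 4 of 9 paralogs and partners fell and 0 rose (14.4% and 17.6% of all genes), with a median of -1.54, or -2.04 relative to all genes.

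Of 17 upstream Hippo components, 7 fell, 1 rose (14.4% and 17.6% of all genes) and 9 did not pass the test, with a median log2 fold change of -0.25, or -0.75 relative to all genes. Library size alone gave 12 lower and 0 higher, and leaving out siAATF replicate 1 gave 7 lower and 3 higher. The core kinases Stk3, Stk4 and Lats1 were among those that did not pass. Of the adaptors of these kinases, Sav1 (-3.21, adjusted p = 0.00409) and Mob1a (-1.53, adjusted p = 0.00887) fell. The adaptor Mob1b (15.9 to 23.0 CPM, 0.44, adjusted p = 0.450) did not pass. Sav1 had only 14, 4 and 14 siControl counts against 47, 1 and 17 in siAATF. Stk3, Stk4, Sav1, Mob1a and Mob1b are named here after their values were seen. The largest falls were in Rassf1, a scaffold that binds MST kinases (10.8 to 0.427 CPM, log2 fold change -4.35, adjusted p = 0.00140), Dchs1, a protocadherin ligand of FAT4 (-3.80, adjusted p = 0.000196), and Map4k4, a kinase that phosphorylates LATS (153 ± 44.3 to 11.6 ± 1.63 CPM, -3.73, adjusted p = 6.8e-05). After thinning to the smallest mouse total, Rassf1 was at -1.64 and no longer called, with Dchs1 at -5.73 and Map4k4 at -5.21. Wwc1, or KIBRA, an activator of LATS, rose from 17.7 ± 16.7 to 136 ± 57.4 CPM (2.86, SE 0.60, adjusted p = 0.00308), but was not called with scaling by library size alone, at 1.00, and stood at 4.01 without siControl replicate 1.

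Among 16 other genes of the YAP and TEAD target signature, 15 were tested (Foxf2 had 1 count), of which 8 fell, 0 rose (14.4% and 17.6% of all genes) and 7 did not pass, with a median of -2.17, or -2.67 relative to all genes. Igfbp3, a secreted binder of insulin-like growth factors, fell from 509 ± 108 to 9.37 ± 8.51 CPM (log2 fold change -5.74, SE 0.71, adjusted p = 0.000110), and stood at -6.82 without siAATF replicate 1. Myof, a membrane repair protein of the ferlin family, fell from 52.0 ± 7.97 to 2.45 ± 0.0894 CPM (-4.41, SE 0.37, adjusted p = 2.3e-05). Fjx1, with 6, 1 and 1 siControl counts against 12, 1 and 3 in siAATF, passed at -3.14 (SE 1.07, adjusted p = 0.0410) but lost the call in 7 alternatives, among them those without siControl replicate 1 (-1.92) or 2 (-3.17) and without siAATF replicate 1 (-3.60), 2 (-2.92) or 3 (-2.74). Without siControl replicate 3 it stood at -3.77.

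In a list of 15 genes for stretch channels, focal adhesions and the MRTF and SRF arm of mechanosensing, 7 fell, 1 rose (14.4% and 17.6% of all genes) and 7 did not pass, with a median of -1.15, or -1.65 relative to all genes. The stretch-gated channels Piezo2 and Piezo1 fell, from 13.1 to 1.15 CPM and from 15.5 to 1.69 CPM (log2 fold changes -3.60 and -3.39, adjusted p = 0.000960 and 0.00134). Both calls were lost after thinning, at -2.16 and -2.13, and without siAATF replicate 2 Piezo1 was at -4.02. Zyx, a focal adhesion protein that responds to tension, fell from 132 to 22.2 CPM (-2.55, SE 0.43, adjusted p = 0.000729, and -3.86 after thinning). Rock1, a kinase of actomyosin contraction, rose from 106 to 341 CPM (1.69, SE 0.51, adjusted p = 0.0226), and scaling by library size alone turned it to -0.26. The call of Rock1 was also lost with upper-quartile scaling (1.41), after thinning (1.11) and without siControl replicate 1 (1.47), 2 (1.86) or 3 (1.75). In the same libraries, the fibroblast and stellate cell, macrophage, endothelial and cholangiocyte marker sums were lower in siAATF without overlap. The hepatocyte sum was higher, and the neutrophil and mesothelial sums overlapped between the groups. The part of these cells in the changes of all 4 lists was not tested.

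Over the 6 libraries, the 10 genes did not share a single profile. Pearson's r of log2(CPM + 1) with the mean of the 10 standardized profiles was 0.967 for Axl, 0.947 for Ccn1, 0.946 for Ccn2 and 0.932 for Ankrd1, 0.846 for Wwtr1, 0.815 for Tead1, 0.771 for Lats2 and 0.426 for Ajuba. It was below 0 for Amotl2 (-0.24) and Yap1 (-0.71). The genes most like that mean, among 9458 genes with a mean of at least 50 counts, were Gatm (0.997), which makes the precursor of creatine, Col14a1 (0.994), a fibril-associated collagen, and Septin8 (0.993), a septin of the cytoskeleton. These values are descriptions over 6 points that fall in 2 groups of unequal mouse depth.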

How the data were processed

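RNA of 6 liver libraries was sequenced after SMART-Seq amplification. Per the submitters' processing notes and the methods, the authors trimmed reads, aligned them with STAR 2.7.11 to a joined human and mouse genome, removed reads mapping to several places or both species, and counted genes with featureCounts 2.0.1 (GENCODE M33, GRCm39). The deposited values are raw counts, without normalization, in separate human and mouse tables. Names came from GENCODE M39 (56323 of 56884 mouse identifiers matched). The human table lists its genes by identifier, and no annotation naming them was at hand, so human orthologs were not analysed here.

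Mouse genes whose counts summed to 10 or more over the libraries were tested with edgeR 4.0.16 (quasi-likelihood, TMM, group only, R 4.3.3), with Benjamini-Hochberg adjustment over 18018 genes. A call is an adjusted p under 0.05. Standard errors are the absolute log2 fold change over the root of F, with a prior count of 0.125. The fit was also run on counts simulated from a mean profile shared by both groups, which does not cover their difference in makeup. The genes and lists were chosen with earlier results of these data known. Named were the 10 genes, Aatf, the paralogs, the genes with the 3 largest falls and rises of each list among called genes without overlap, and the 3 genes of most similar profile. Alternatives were DESeq2 1.42.0, limma-voom (limma 3.58.1), RLE, upper-quartile and library-size scaling, 3 other filters, thinning to the smallest library, the study's criteria, a replicate block and leaving out each library. Promoter windows are from RefSeq (GRCm38.p6). Figures used matplotlib 3.10.9 under Python 3.11.15.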

Additional observations from a re-analysis of the deposited data

How the results depend on the processing

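Of the 156 log2 fold changes of the 10 genes under the alternatives, 141 kept their direction and their side of the threshold. The number of the 10 genes called, 6 as reported, was 5 to 9 over all settings: 7 with DESeq2, 6 with limma-voom, 9 with library size alone, 5 of 7 tested with at least 10 counts in every library, and 5 to 7 with a library left out. Of all 18018 genes tested, DESeq2 called 2940 lower, limma-voom 3065 and library size alone 7276, against 2593 as reported. With at least 10 counts in every library, 873 of 3552 were lower. Leaving out a library gave 1722 to 2509 lower, of 16290 to 17956 tested. Wwtr1 was not called without siControl replicate 3 (-1.22) nor Tead1 after thinning (-1.96), whereas Lats2 was called under 9 alternatives (-1.38 with DESeq2) and Ajuba (-3.11) and Amotl2 (-1.56) with library size alone. As the genes were chosen with this contrast known, these calls are a description. Relative to the median of all genes, the ranges were -9.12 to -7.97 for Ankrd1, -7.27 to -5.32 for Ccn2, -4.89 to -3.76 for Axl, -4.55 to -3.10 for Ccn1, -3.49 to -1.66 for Tead1, -2.38 to -1.29 for Wwtr1, -5.13 to -1.17 for Lats2, -2.41 to -0.94 for Ajuba, -0.45 to 0.91 for Yap1 and -0.81 to 0.81 for Amotl2. The low end for Lats2 is the value after thinning, which left few of its siAATF counts.

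Scaling by library size alone moved the median of all genes from 0.50 to -1.30 and the calls from 3169 higher and 2593 lower to 747 higher and 7276 lower. It reversed Yap1 (-1.15), Amotl2 (-1.56), Rock1 (-0.26), Lats1 (-1.13), Amot (-1.38), Limd1 (-0.80) and Aatf (-0.92), and called 12 upstream components, 7 paralogs and partners, 13 other targets and 14 mechanosensing genes, all lower, against 8, 4, 8 and 8. Upper-quartile scaling put Amotl2 at -0.015, and thinning put Aatf at -0.23. With at least 10 counts in every library, 1745 of 3552 genes tested were called (873 lower, 872 higher), with 2 upstream components, 2 paralogs and partners and 4 other targets, as fewer genes were tested. Thinning moved the median of all genes to -0.30 and called 3171 of 9662 genes (1879 lower, 1292 higher), with 5 upstream components, 2 paralogs and partners and 5 mechanosensing genes. The study's criteria called 3 mechanosensing genes. With a library left out, 3333 to 6088 of all genes (3333 without siControl replicate 3), 2 to 4 paralogs and partners (2 without siControl replicate 3) and 5 to 8 mechanosensing genes (5 without siControl replicate 1 or 3) were called, with 7 to 10 upstream components (7 lower and 3 higher without siAATF replicate 1) and 6 to 8 other targets. Set against human and mouse counts together, the log2 ratios of the mean levels were 4.97 for Yap1, 2.91 for Wwtr1, 1.83 for Tead1, 2.97 for Lats2, 2.82 for Ajuba, 4.52 for Amotl2, -3.61 for Ankrd1, 1.50 for Ccn1, -0.87 for Ccn2 and 0.40 for Axl. Without siAATF replicate 1, an alternative chosen after seeing the data, they were -4.28 for Ankrd1, 0.024 for Ccn1, -2.61 for Ccn2 and -0.0012 for Axl.

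With the replicate number as a block, 7 of the 10 genes were called, and 3854 of all genes were higher and 2912 lower. Deviations from the group means correlated at 0.110, 0.154 and -0.024 between libraries of the same number. Libraries of different numbers were not compared, so these values do not settle whether the numbers pair the samples. Alternatives on human orthologs were not run. The cause of each change of call was not tested unless stated.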
